A study of Mus musculus with 14 samples.

Results

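The BMP antagonists noggin (*Nog*), chordin (*Chrd*), gremlin 1 (*Grem1*), follistatin (*Fst*) and follistatin-like 1 (*Fstl1*), the BMP-binding modulator *Bmper* and the decoy receptor *Bambi* were examined for SMAD binding and H3K27ac in BMP6-stimulated mouse muscle stem cells (MuSCs). These 7 genes were taken by name from 21757 protein-coding genes. A peak was assigned to a gene when it overlapped the canonical GENCODE transcript of that gene, or the 20 kb on either side, on the mouse genome build GRCm39. In all, 21 SMAD peaks and 75 H3K27ac peaks lay in these windows.

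CUT&Tag, which maps chromatin-bound proteins by antibody-guided DNA cleavage, had been performed with antibodies against pSMAD1/5/9, SMAD4 and H3K27ac, with 2 biological replicates of each antibody and condition. The MuSCs came from muscles of female C57BL/6N(Tg(Pax7-EGFP)Tajb) mice at an age of 9 weeks, were sorted for the Pax7-driven GFP reporter and were cultured before the experiment. Both groups were starved for 6 h with 200 ng/mL of the BMP-trapping receptor fragment BMPR1A-Fc and were then exposed for 1 h either to 100 ng/mL BMP6 or, as the control, to the vehicle of 4 mM HCl with 0.1% BSA. The deposited data were 6 consensus peak lists, one for each antibody and condition, and the 2 libraries made with no primary antibody were not used here.

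BMP antagonists are secreted proteins that hold BMPs away from their receptors. Noggin, chordin and gremlin 1 bind BMPs directly, whereas follistatin is best known for binding activins and also binds some BMPs. BAMBI resembles a type I receptor but lacks the kinase domain, so it dampens signalling from inside the receptor complex. Several of these genes are themselves induced by BMP signals in other tissues and then limit the signal as negative feedback. In muscle, noggin and follistatin are known for their influence on myogenic differentiation and on muscle mass.

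The lists held 7339 pSMAD1/5/9, 12860 SMAD4 and 78050 H3K27ac peaks after BMP6, and 949, 8577 and 67790 peaks in the control. An H3K27ac peak covered the TSS of 8 of 8 MuSC markers in both conditions, including *Pax7* and *Myod1*. The TSS was also covered for 3 of 5 genes of mature muscle fibres (*Ckm*, *Acta1* and *Myh1*) and for 1 of 6 genes of fibro-adipogenic cells (*Dpt*), but for 0 of 4 endothelial and 0 of 4 blood cell genes, in both conditions. The part of other cells in the peaks described here was not tested. Peak strength is given as the rank of the signal within its list, where rank 1 is the strongest peak, because signals of different lists are not on a common scale. Each list also carries the signals of both replicates in unnumbered columns, and the ranks by these columns are given as the replicate spread. An exact permutation test of 2 against 2 values cannot give a two-sided p below 0.333, so the comparisons are descriptions without a test. Read counts are not part of the lists, which leaves the sequencing depth at each site unknown, and the absence of a peak means only that none was listed.

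After BMP6, pSMAD1/5/9 peaks were found at *Chrd*, *Fst*, *Fstl1* and *Bambi*, with a single peak at each, and SMAD4 peaks at these 4 genes and at *Nog* and *Bmper*. *Grem1* had no peak in any of the 6 lists. In the control, pSMAD1/5/9 peaks were found at 0 of the 7 genes, and SMAD4 peaks at *Chrd*, *Fstl1* and *Bambi*. The number of peaks by gene and list is plotted as a grid. The count of 4 of 7 genes with a pSMAD1/5/9 peak after BMP6 stood beside 29.1% of all protein-coding genes, and 0 of 7 in the control beside 5.97%. For SMAD4, 6 of 7 genes after BMP6 stood beside 39.3%, and 3 of 7 genes in the control beside 30.8%. A pSMAD1/5/9 peak after BMP6 without one in the control was found at 4 of 7 genes, beside 23.5% of all genes. A SMAD4 peak after BMP6 without one in the control was found at 3 of 7 genes (*Nog*, *Fst* and *Bmper*), beside 12.8%. Both factors were found after BMP6 at 4 of 7 genes beside 25.4%, and SMAD4 without pSMAD1/5/9 at 2 of 7 genes (*Nog* and *Bmper*) beside 13.9%. With 7 genes, each gene moves such a share by a large step, and nothing particular to the group was read from these counts.

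**Figure D1:**
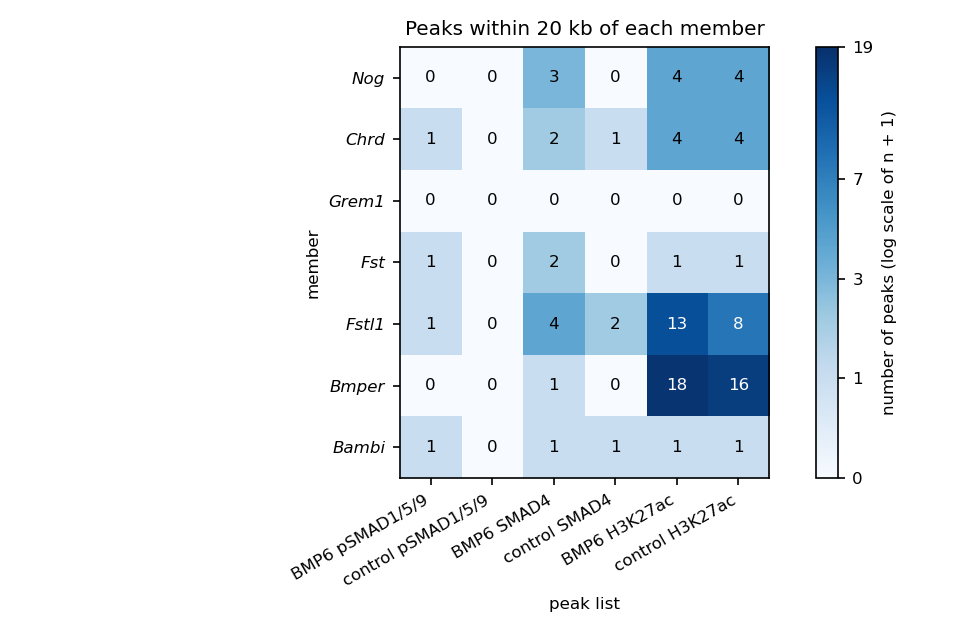
Number of peaks that overlap the transcript of each member extended by 20 kb (rows) in each of the 6 consensus lists (columns), with the number in each cell and darker blue for more peaks. The column of the control pSMAD1/5/9 list and the row of *Grem1* hold 0 throughout, and the highest counts are the 18 and 16 H3K27ac peaks of *Bmper*.

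Windows differ in length, from 41.7 kb for *Nog* to 302 kb for *Bmper*, with a median of 56.3 kb over all genes. Per 100 kb of window, the 7 genes held 2.03 SMAD4 peaks after BMP6 and 0.624 in the control, beside 0.759 and 0.512 in the union of all protein-coding windows. For pSMAD1/5/9 after BMP6 the density was 0.624 peaks per 100 kb at the 7 genes and 0.440 in the union. The maps of the peaks along each gene show SMAD peaks at the TSS of 6 genes and distal ones at *Nog*, *Chrd*, *Fst* and *Fstl1*.

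**Figure D2:**
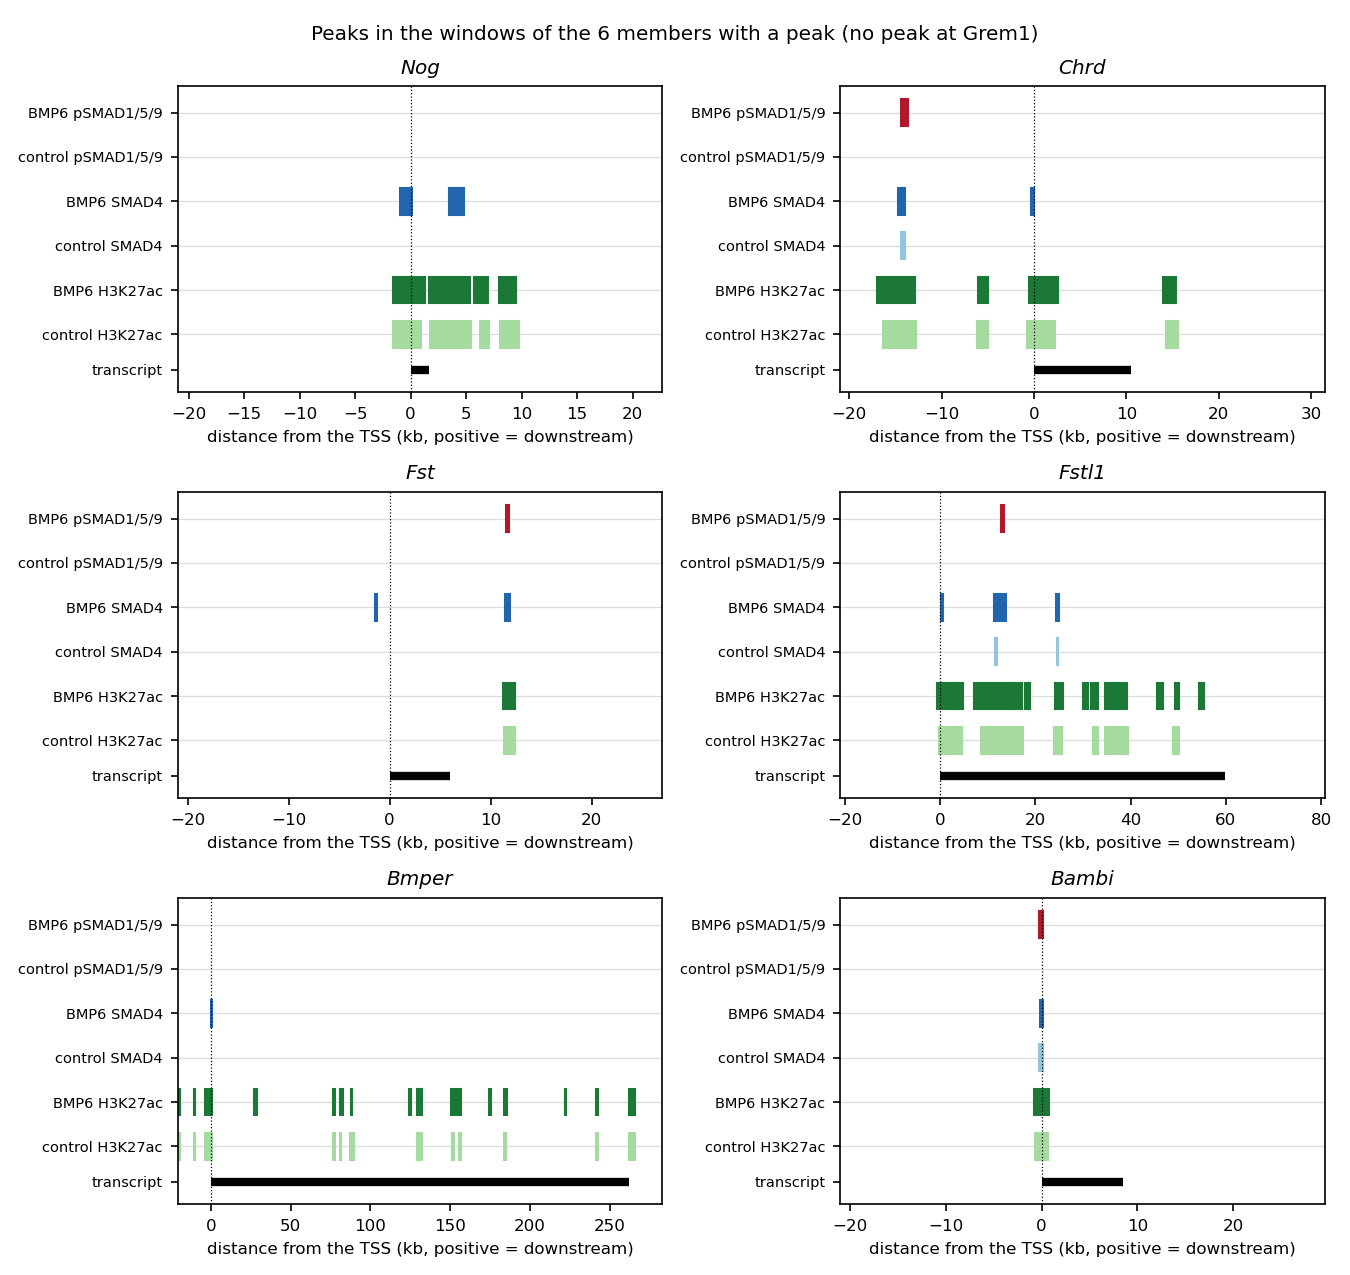
Peaks of the 6 lists (coloured bars, one row per list) along the windows of the 6 members with a peak, against the distance from the TSS in kb, with the transcript as a black bar. SMAD4 peaks after BMP6 lie at or near the TSS of all 6 genes drawn, whereas pSMAD1/5/9 peaks lie there only at *Bambi*.

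*Nog* encodes noggin, a secreted protein that wraps around BMP dimers and covers their receptor-binding sites. Its canonical transcript is a single exon at chr11:89191464-89193158 on the minus strand, and no other protein-coding gene lay in its window. It had 3 SMAD4 peaks after BMP6, no SMAD4 peak in the control and no pSMAD1/5/9 peak in either condition. As many SMAD4 peaks or more were found at 10.4% of all genes. The strongest peak, at chr11:89193061-89194083, spanned the TSS with its summit 436 bp upstream, and it ranked 4402 of 12860 peaks. Its ranks by the replicate columns were 3305 and 8981, so that the replicates placed it in different parts of the list. The other peaks had their summits 2086 and 2560 bp past the end of the transcript and ranked 12406 and 10384, near the bottom of the list. None of the 3 peaks had an IDR (irreproducible discovery rate) of at most 0.01. All of them overlapped H3K27ac peaks that were present in both conditions. The H3K27ac peak over the *Nog* TSS ranked 22466 of 78050 peaks after BMP6, with replicate ranks of 16194 and 29169, and 28791 of 67790 in the control, with 27930 and 29862. The replicate ranks of the 2 conditions overlapped, but as a percent of the list both BMP6 replicates, at 20.7% and 37.4%, stood above both control replicates, at 41.2% and 44.1%.

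The windows of 200 bp around the summits at the *Nog* promoter and downstream of the gene are shown because they hold the strongest SMAD4 peak of this gene and the stronger of its downstream pair. They are read 5′ to 3′ on the plus strand of GRCm39, from chr11:89193495-89193694 and chr11:89188805-89189004, and capitals mark matches on either strand to GGAGCC and CAGAC, the core of SMAD1/5 sites and the SMAD4 box.
Nog promoter: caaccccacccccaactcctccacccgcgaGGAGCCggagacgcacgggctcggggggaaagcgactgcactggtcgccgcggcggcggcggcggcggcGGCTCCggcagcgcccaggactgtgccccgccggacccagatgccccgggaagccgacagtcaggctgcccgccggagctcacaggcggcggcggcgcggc
Nog downstream: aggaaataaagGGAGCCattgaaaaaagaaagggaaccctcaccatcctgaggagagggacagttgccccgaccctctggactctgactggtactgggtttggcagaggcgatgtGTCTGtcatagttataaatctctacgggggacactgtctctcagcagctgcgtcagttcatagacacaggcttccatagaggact
The promoter window held 2 copies of GGAGCC and 78.5% G and C, and the copy nearest the summit was centred 3 bp from it. It held neither CAGAC nor CAGCTG nor TGAGTCA. The downstream window held 1 copy each of GGAGCC and CAGAC and of the E-box CAGCTG, which is in lower case. A match to GGAGCC was present in 23.7% of all SMAD4 windows after BMP6, and in 33.6% of those within 2 kb of a TSS.

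*Chrd* encodes chordin, which binds BMPs through its cysteine-rich repeats and is cut by BMP1 and the tolloid proteases. Its transcript lies at chr16:20550622-20561134 on the plus strand with 23 exons, and the transcripts of *Clcn2*, *Polr2h* and *Thpo* reached into its window. The only pSMAD1/5/9 peak of the window, at chr16:20536231-20537010, had its summit 14304 bp upstream of the *Chrd* TSS, but 806 bp downstream of the TSS of *Polr2h*, a subunit gene of RNA polymerases. It ranked 2416 of 7339, with replicate ranks of 2150 and 2877, and had an IDR below 0.01 (−log10 of 2.62). A SMAD4 peak lay over it after BMP6, with a summit 27 bp away and rank 2219 of 12860 (2341 and 2123 by replicate), and another in the control, with rank 4676 of 8577 (3790 and 6192 by replicate). Both replicates thus placed this site higher after BMP6 than either replicate did in the control. The assignment to *Chrd* follows from the 20 kb window alone, because the nearest TSS was that of *Polr2h* for all 3 peaks.

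A second SMAD4 peak after BMP6 had its summit 203 bp upstream of the *Chrd* TSS, inside the transcript of *Thpo*, the thrombopoietin gene on the opposite strand. It ranked 5821 of 12860, with replicate ranks of 4892 and 8241, and had no counterpart in the control. Its window of 200 bp held 7 matches to CAGAC and none to GGAGCC or GGCGCC, whereas the pSMAD1/5/9 window near *Polr2h* held 1 match to GGCGCC and 1 to CAGAC. These windows reach into annotated untranslated exons, and their sequence is not shown. H3K27ac covered both sites in both conditions. At the *Chrd* TSS its peak ranked 16031 after BMP6 and 15386 in the control. Its summit lay 1063 and 1155 bp downstream of that TSS. The nearest TSS was that of *Thpo*, 209 and 301 bp away, so this peak cannot be assigned to *Chrd* alone.

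*Grem1* encodes gremlin 1, a cystine-knot protein that binds BMP2, BMP4 and BMP7. Its transcript lies at chr2:113576509-113589000 on the minus strand with 2 exons. None of the 6 lists held a peak in its window, which 24.2% of all protein-coding genes shared, and 53.9% of all genes had no peak in the 4 SMAD lists. The nearest H3K27ac peak had its summit 90.2 kb upstream of the *Grem1* TSS in both conditions, next to the TSS of *Arhgap11a*. The nearest pSMAD1/5/9 peak after BMP6 had its summit 222 kb upstream, ranked 6783 of 7339 and lay nearer to *Gjd2*.

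*Fst* encodes follistatin, a secreted protein that neutralises activins and myostatin. Its transcript lies at chr13:114589506-114595521 on the minus strand with 6 exons, and no other protein-coding gene lay in its window. The pSMAD1/5/9 peak, at chr13:114583681-114584040, was intergenic, with the summit 11567 bp downstream of the TSS and 5552 bp past the end of the transcript, and *Fst* was its nearest gene. It ranked 3768 of 7339, with replicate ranks of 2638 and 5906. A SMAD4 peak after BMP6 overlapped it with a summit 124 bp away and ranked 9230 of 12860 (8746 and 9274 by replicate), and neither factor had a peak there in the control. The only H3K27ac peak of the window covered this site in both conditions, with rank 29789 after BMP6 (replicate ranks 23378 and 36971) and rank 28610 in the control (29405 and 27758). The replicate ranks of the conditions overlapped.

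A further SMAD4 peak after BMP6 had its summit 1294 bp upstream of the *Fst* TSS. It ranked 12649 of 12860 (12706 and 12230 by replicate) and was thus among the weakest peaks of the list, with an IDR just inside 0.05 (−log10 of 1.35). It was the only one of the 13 SMAD4 peaks at the members after BMP6 that did not overlap an H3K27ac peak, and 95.7% of all SMAD4 peaks after BMP6 did. No H3K27ac peak covered the TSS of *Fst* in either condition, although its distal site was marked.

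The windows around the distal pSMAD1/5/9 summit and the upstream SMAD4 summit of *Fst* are shown for the arrangement of their CAGAC boxes, from chr13:114583855-114584054 and chr13:114596716-114596915 on the plus strand of GRCm39, with CAGAC on either strand in capitals.
Fst distal: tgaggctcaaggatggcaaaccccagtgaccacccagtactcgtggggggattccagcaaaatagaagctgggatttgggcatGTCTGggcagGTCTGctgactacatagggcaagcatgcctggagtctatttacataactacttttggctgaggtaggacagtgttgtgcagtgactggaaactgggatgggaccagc
Fst upstream: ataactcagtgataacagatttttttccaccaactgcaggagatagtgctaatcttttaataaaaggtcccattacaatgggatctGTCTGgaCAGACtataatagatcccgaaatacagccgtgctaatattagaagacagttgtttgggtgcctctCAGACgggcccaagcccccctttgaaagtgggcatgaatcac
The distal window held 2 CAGAC boxes in the same orientation, centred 14 and 4 bp from the summit on the same side of it. The upstream window held 3 boxes, of which 2 lay on opposite strands at 11 and 4 bp from the summit. Neither window held any of the other motifs searched. The 200 bp window around the overlapping SMAD4 summit at the distal site, 124 bp away, held no match to any motif searched, CAGAC included. A CAGAC match was present in 48.6% of all pSMAD1/5/9 windows and in 53.5% of all SMAD4 windows after BMP6, so a match alone is common.

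*Fstl1* encodes a secreted glycoprotein related to follistatin that binds BMP4 and its receptors. Its transcript lies at chr16:37597105-37656876 on the plus strand with 11 exons, and the transcript of *Btnl12* reached into the far end of its window. It had the largest number of SMAD peaks of the 7 genes, with 1 pSMAD1/5/9 and 4 SMAD4 peaks after BMP6 and 2 SMAD4 peaks in the control. As many SMAD4 peaks or more after BMP6 were found at 5.52% of all genes, a share not corrected for window length. Per 100 kb of window, *Fstl1* held 4.01 SMAD4 peaks after BMP6. This compares with 7.20 at *Nog*, 4.35 at *Fst*, 3.96 at *Chrd*, 2.06 at *Bambi* and 0.331 at *Bmper*. The summits of the *Fstl1* SMAD peaks fell in exon 1 for the peak at the TSS and in intron 2 for the others.

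The strongest SMAD peak of all 7 genes was the SMAD4 peak at chr16:37608488-37609737 in intron 2 of *Fstl1*, 11862 bp downstream of the TSS. It ranked 407 of 12860 after BMP6, within the top 3.16% of the list, with replicate ranks of 500 and 353. The control had a SMAD4 peak at the same place, with a summit 11877 bp from the TSS and rank 1712 of 8577 (1473 and 2355 by replicate). Both replicates after BMP6 thus ranked above both control replicates, also when the rank was taken as a percent of the list, with 3.89% and 2.74% after BMP6 and 17.2% and 27.5% in the control. No pSMAD1/5/9 peak overlapped it.

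The pSMAD1/5/9 peak, at chr16:37609861-37610508, lay beside it in the same intron, 13187 bp from the TSS. It ranked 2686 of 7339, with replicate ranks of 2613 and 2807, the closest replicate ranks of the 4 pSMAD1/5/9 peaks. A SMAD4 peak after BMP6 had its summit 14 bp away and ranked 1890 of 12860 (1710 and 2490 by replicate), and no SMAD4 peak overlapped the pSMAD1/5/9 peak in the control. The 2 neighbouring sites therefore differed, since SMAD4 was listed at the first in both conditions and at the second only after BMP6. Both overlapped 1 broad H3K27ac peak, 7770 bp wide with rank 2435 of 78050 after BMP6 and 8700 bp wide with rank 1762 of 67790 in the control. The remaining SMAD4 peaks were weaker. The peak at the TSS, with its summit 228 bp downstream, ranked 8825 (7760 and 10549 by replicate) and was listed only after BMP6. The peak 24602 bp downstream ranked 6411 after BMP6 (8541 and 3670 by replicate) and 5780 in the control (5426 and 5720 by replicate), and the replicate ranks overlapped.

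The windows of the 2 neighbouring intronic sites of *Fstl1* are shown because they differ in their SMAD motifs. They come from chr16:37608868-37609067, around the SMAD4 summit, and from chr16:37610193-37610392, around the pSMAD1/5/9 summit, on the plus strand of GRCm39, with capitals for GGAGCC and GTCTAGAC and CAGAC on either strand.
Fstl1 SMAD4 site: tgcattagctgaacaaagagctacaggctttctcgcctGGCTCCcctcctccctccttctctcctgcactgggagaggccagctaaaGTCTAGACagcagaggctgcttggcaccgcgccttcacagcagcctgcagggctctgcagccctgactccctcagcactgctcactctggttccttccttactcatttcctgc
Fstl1 pSMAD1/5/9 site: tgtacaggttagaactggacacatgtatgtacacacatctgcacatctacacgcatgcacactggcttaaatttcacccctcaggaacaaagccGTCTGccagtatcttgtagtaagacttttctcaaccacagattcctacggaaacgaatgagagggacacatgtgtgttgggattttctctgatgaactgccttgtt
The SMAD4 site held the palindrome GTCTAGAC, a pair of SMAD4 half-sites, centred 8 bp from the summit, and a GGAGCC 58 bp from it, but no CAGAC. The palindrome was found in 1.26% of all SMAD4 windows after BMP6, or 162 of 12860, and in 0.518% of the pSMAD1/5/9 windows. The SMAD4 peaks that held it had a median rank within the top 24.1% of the list, compared with 46.9% for the peaks that held CAGAC. The pSMAD1/5/9 site held 1 CAGAC, centred 3 bp from its summit, and none of the other motifs searched. In the window 24602 bp from the TSS, 6 matches to CAGAC were counted, of which 4 came from a tandem repeat at its edge, together with 1 match to the AP-1 motif TGAGTCA.

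*Bmper* encodes a secreted BMP-binding protein with cysteine-rich repeats like those of chordin, which can dampen or promote BMP signals. Its transcript lies at chr9:23134359-23396509 on the plus strand with 15 exons and is the longest of the 7. In spite of the length of its window, *Bmper* had 1 SMAD peak, a SMAD4 peak after BMP6 with its summit 17 bp downstream of the TSS, which makes 0.331 SMAD4 peaks per 100 kb. It ranked 7958 of 12860, with replicate ranks of 10169 and 4739, and its IDR was just inside 0.05 (−log10 of 1.43). The window of 200 bp around its summit had 76% G and C and held 2 matches to GGAGCC and 1 to GGCGCC. The H3K27ac peak over the TSS ranked 11134 after BMP6 (8457 and 13543 by replicate) and 14231 in the control (15283 and 12886 by replicate). These ranks overlapped, whereas as a percent of the list both BMP6 replicates, at 10.8% and 17.4%, stood above both control replicates, at 22.5% and 19%. The nearest pSMAD1/5/9 peak after BMP6 was 191 kb upstream of the TSS, where the control had its nearest SMAD4 peak.

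*Bambi* was the only gene with a pSMAD1/5/9 peak at its own TSS. The transcript lies at chr18:3507871-3516404 on the plus strand with 3 exons, and no other protein-coding gene lay in its window. The pSMAD1/5/9 peak after BMP6 had its summit 11 bp downstream of the TSS and ranked 5615 of 7339 (4898 and 6076 by replicate), the weakest of the 4 pSMAD1/5/9 peaks at the members. A SMAD4 peak was present in both conditions. After BMP6 its summit was 54 bp upstream of the TSS and it ranked 5782 of 12860 (7472 and 3516 by replicate). In the control its summit was 44 bp upstream and it ranked 2590 of 8577 (2266 and 3223 by replicate). By rank, both control replicates stood above both BMP6 replicates, opposite to the shared sites at *Chrd* and in the *Fstl1* intron 11862 bp from the TSS. As a percent of the list, the replicates overlapped, with 58.1% and 27.3% after BMP6 and 26.4% and 37.6% in the control. The single H3K27ac peak of *Bambi* lay over the TSS. It ranked 14030 of 78050 after BMP6 (11211 and 16344 by replicate) and 19429 of 67790 in the control (17831 and 21242 by replicate), so that both BMP6 replicates ranked above both control replicates, also as a percent of the list. The pSMAD1/5/9 window of 200 bp had 72% G and C, 1 match to GGCGCC and 2 to CAGAC.

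**Figure D3:**
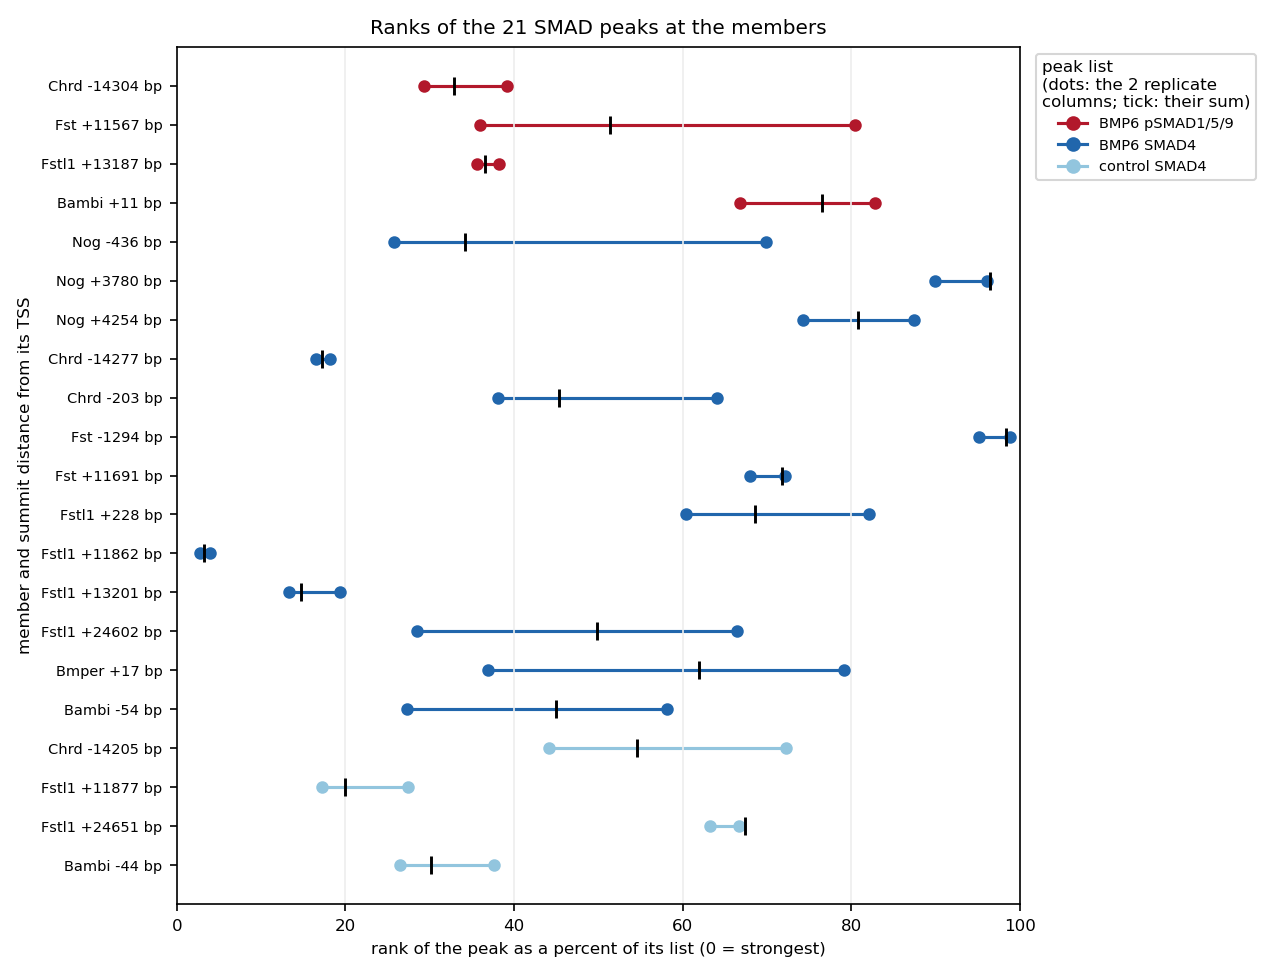
Ranks of the 21 SMAD peaks at the members as a percent of their list, where 0 is the strongest peak, with the 2 replicate columns as dots, their sum as a tick, and the summit distance from the TSS beside each gene. The *Fstl1* peak 11862 bp from its TSS stands at 3.16%, whereas the SMAD4 peaks of *Nog* downstream of the gene and of *Fst* upstream of it lie near the bottom of the list.

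The SMAD4 peaks near the TSS were compared between the conditions after the values had been seen. After BMP6, a SMAD4 peak lay within 2 kb of the own TSS at 6 of 7 genes, beside 17.8% of all protein-coding genes, and in the control at 1 of 7 genes (*Bambi*), beside 12.4%. A SMAD4 peak there after BMP6 and none in the control was found at *Nog*, *Chrd*, *Fst*, *Fstl1* and *Bmper*, beside 8.40% of all genes. The peaks of these 5 genes ranked between 4402 and 12649 of 12860. With an IDR of at most 0.01 the count after BMP6 fell from 6 to 0 genes. The control kept its 1 gene (*Bambi*) and then had the higher count. That threshold was passed by 6322 of all 12860 SMAD4 peaks after BMP6 and by 3575 of 8577 in the control. The share of all genes was not computed at this threshold, so nothing particular to the members was read from the drop. In both conditions the TSS was covered by H3K27ac at 5 of 7 genes, all but *Grem1* and *Fst*, beside 48.7% of all genes. At *Chrd* the summit of that peak lay nearer to the TSS of *Thpo*.

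Each of the 4 pSMAD1/5/9 sites at these genes also carried SMAD4 after BMP6, as did 73.2% of the whole list (95% Wilson interval 72.2 to 74.2%). In turn, 4 of the 13 SMAD4 peaks after BMP6 overlapped a pSMAD1/5/9 peak, beside 42.7% of the list. The summits of both factors were 27 bp apart at *Chrd*, 124 bp at *Fst*, 14 bp at *Fstl1* and 65 bp at *Bambi*, and the median over 5375 such sites was 78 bp (quartiles 33 and 157 bp). A SMAD4 peak of the control lay over 2 of these 4 sites, those of *Chrd* and *Bambi*, beside 57.2% of the list. Overlap with H3K27ac after BMP6 was found for 4 of 4 peaks, beside 98.2%.

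At the members, 4 of 13 SMAD4 peaks after BMP6 overlapped a control SMAD4 peak, beside 45.5% of the list (95% Wilson interval 44.6 to 46.4%), and all 4 control peaks overlapped a BMP6 peak, beside 69.7%. By rank, both BMP6 replicates stood above both control replicates at 2 of the 4 shared sites (*Chrd* and *Fstl1*), beside 17.8% of 5852 shared SMAD4 sites, and both control replicates stood above at *Bambi*, beside 36.2%. The lists differ in length, and as a percent of the list the shares over all shared sites turned to 36.2% with BMP6 above and 16.3% with the control above. On that scale, the sites at *Chrd* and *Fstl1* kept their order, and *Bambi* lost it.

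H3K27ac peaks were found in the windows of 6 of 7 genes in both conditions, beside 74.8% of all genes after BMP6 and 73.4% in the control. *Fstl1* was the most covered, with 28.4% of its window under 13 peaks after BMP6 and 22% under 8 peaks in the control. *Nog* followed with 22.2% and 20.9%, *Chrd* with 19.3% and 17.6%, and *Bmper* with 9.22% and 6.43%. *Bambi* with 3.17% and 2.68% and *Fst* with 2.43% and 2.39% lay below the median of all windows, which was 7.07% after BMP6 and 5.68% in the control. The difference between the conditions ranged from 0 percentage points at *Grem1* to 6.46 at *Fstl1*, and the central 90% of all windows ranged from −1.27 to 9.23 points. Of the 41 H3K27ac peaks after BMP6, 33 overlapped a control peak (80.5%, 95% Wilson interval 66.0 to 89.8%), beside 72.0% of the whole list. At 3 of these 33 sites both BMP6 replicates ranked above both control replicates, beside 15.2% of all shared H3K27ac sites, and at 5 sites the control ranked above, beside 20.7%. As a percent of the list, the counts were 8 and 3, beside 27.5% and 11.8%. The sites with the control above include, on both scales, the *Fstl1* peak 15801 bp from the TSS. Its control partner was the 8700 bp wide peak, which also overlapped the BMP6 peak 11880 bp from the TSS.

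**Figure D4:**
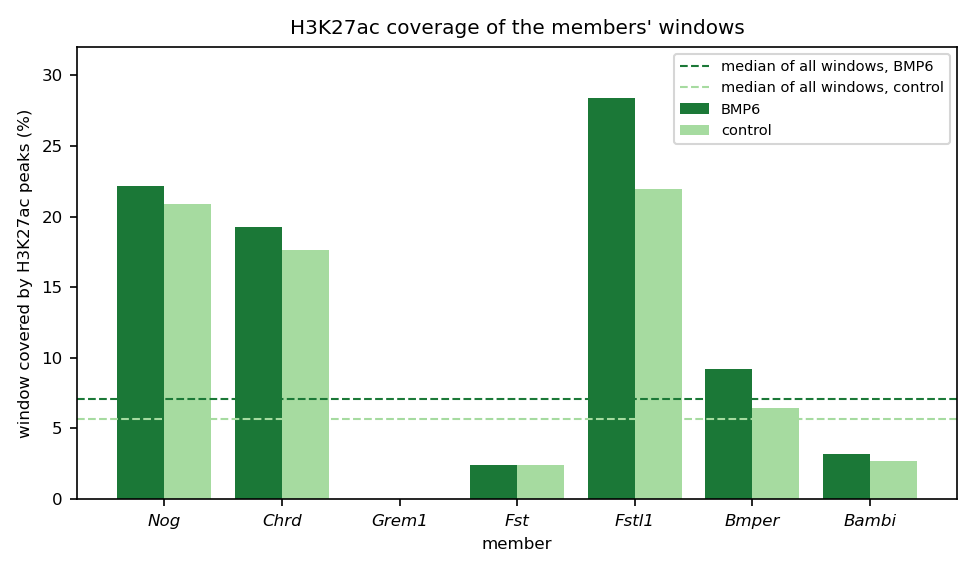
Percent of the window of each member that is covered by H3K27ac peaks after BMP6 (dark green bars) and in the control (light green bars), with the medians of all protein-coding windows as dashed lines. *Fstl1*, *Nog* and *Chrd* lie above both medians, and *Bmper* lies above the median of the same condition in each case. *Bambi* and *Fst* lie below both medians, and *Grem1* is at 0.

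The motifs were counted over all SMAD4 peaks of the members. In the SMAD4 windows after BMP6, GGAGCC was matched at the TSS of *Nog*, *Fstl1* and *Bmper*, with 2 copies each, and of *Bambi* with 1, and the G and C content of these 4 windows ranged from 72.5 to 78.5%. Both downstream windows of *Nog* and the *Fstl1* window 11862 bp from the TSS also held a match. The *Chrd* window near the TSS of *Polr2h*, with 64% G and C, held none. GGAGCC was present in 23.7% of all SMAD4 windows after BMP6 and in 33.6% of those within 2 kb of a TSS. The median G and C content of all SMAD4 windows after BMP6 was 65% within 2 kb of a TSS and 52.5% elsewhere. The windows around the summits 203 bp upstream of the *Chrd* TSS and 1294 bp upstream of the *Fst* TSS, with 50.5% and 43%, held CAGAC and no GGAGCC. Over the whole list, CAGAC was less frequent within 2 kb of a TSS, with 40.5% of the windows, than elsewhere, with 59.4%. The E-box CAGCTG was matched at 1 of the 13 SMAD4 peaks of the members after BMP6, that of *Nog* downstream of the gene, beside 29.1% of the list, and TGAGTCA at 1 of 13, beside 15.1%.

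Other modulators of the pathway were counted from fixed lists, by the 20 kb window alone and without a check of the nearest TSS. Of 13 further secreted antagonists, 3 had a pSMAD1/5/9 peak after BMP6 (*Dand5*, *Nbl1* and *Fstl3*), beside 29.1% of all genes. A SMAD4 peak was found at 7 of the 13 after BMP6, beside 39.3%, and at 6 in the control, beside 30.8%. In the control, pSMAD1/5/9 was listed at 1 of the 13, *Dand5*, beside 5.97% of all genes. The best ranks were those in the window of *Fstl3*, a follistatin relative, where the strongest SMAD4 peak ranked 36 after BMP6 and 35 in the control, and the strongest pSMAD1/5/9 peak after BMP6 ranked 795. Among the chordin proteases, *Bmp1* had 2 pSMAD1/5/9 peaks after BMP6, and 1 of 3 genes thus had such a peak, beside 29.1%. Among 5 co-receptors, *Eng* (endoglin) was the only gene with pSMAD1/5/9 peaks after BMP6, beside 29.1% of all genes, and it had 5. The intracellular feedback genes had a pSMAD1/5/9 peak after BMP6 at 6 of 7 genes, all but *Smurf2*, beside 29.1%. In the control such a peak was found at 2 of 7 genes, *Id2* and *Id3*, beside 5.97%. The best pSMAD1/5/9 peak ranked 15 at *Smad7*, 90 at *Smad6*, 152 at *Id3* and 204 at *Id1*, whereas the best of the members, that in the *Chrd* window, ranked 2416.

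For each member with a pSMAD1/5/9 peak, the protein-coding genes with the most similar profile were sought over the 6 lists, by the Euclidean distance between the percentiles of the strongest peak in each window. For *Chrd* these were its neighbours *Clcn2* and *Polr2h* at a distance of 0, since the same peaks fell into all 3 windows. For *Fst* they were *Adcy4* (9.05 percentile points) and *A630023A22Rik* (15.3), and for *Fstl1* *Zcchc13* (3.70) and *C1qtnf3* (6.18). For *Bambi* they were *Cdyl* (8.30) and *Cib1* (10.6).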

How the data were processed

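Peak lists of 3 antibodies (pSMAD1/5/9, SMAD4, H3K27ac) were analysed, which stand for 12 of 14 samples, grouped by antibody and treatment as labelled. Per the methods and the processing notes, the authors brought the libraries of an antibody to the same depth, used Bowtie2 2.5.4 for alignment to GRCm39 and SAMtools 1.21 for filtering, called peaks per replicate with JAMM and combined both replicates with IDR at a threshold of 0.05. The deposited signal of a peak is a score without a fixed range, and each consensus signal equalled the sum of its 2 replicate columns. The deposited IDR is given as −log10.

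Starts were converted to 1-based positions. Each list was ranked by its signal in Python 3.11.15 with pandas 2.3.3, and overlaps needed 1 bp. Transcripts were the canonical ones of GENCODE on GRCm39, and sequences were read from GRCm39 with pysam 0.24.0. A peak was at a TSS within 2 kb of it. Motif matches (6 motifs, either strand) were taken from 200 bp around the summit. Intervals were Wilson 95% intervals from scipy 1.17.1 and cover counting error over peaks alone. Overlap, ranking and motif functions were tested on simulated data.

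The text names the 7 members, the genes nearer to a SMAD peak than the member, other pathway genes with a pSMAD1/5/9 peak after BMP6, and the 2 most similar genes per bound member. *Smurf2* and the genes beside peaks outside the windows were named after their values were seen. The members and lists were chosen with earlier results of these data known. Alternatives changed the IDR threshold, the window, the transcripts, the overlap, the replicate column and the motif window. A listed pathway gene is not reported here.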

Additional observations from a re-analysis of the deposited data

How the results depend on the processing

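Restricting the lists to an IDR of at most 0.01 lowered the peaks at the members from 4 to 2 for pSMAD1/5/9 after BMP6, from 13 to 3 for SMAD4 after BMP6 and from 4 to 2 for SMAD4 in the control. Of the whole lists, 3674 of 7339, 6322 of 12860 and 3575 of 8577 peaks passed. The genes with a peak then numbered 2 for pSMAD1/5/9 and 2 for SMAD4 after BMP6, *Chrd* and *Fstl1* for both factors. At *Chrd* these were the peaks near the TSS of *Polr2h*, and the pSMAD1/5/9 peaks of *Fst* and *Bambi* did not pass. Within 2 kb of the TSS, 0 genes kept a SMAD4 peak after BMP6 and 1 gene in the control, an alternative chosen after seeing the data. In the full lists, 3 pSMAD1/5/9 and 12 SMAD4 peaks after BMP6 had the TSS of the member as the nearest. Counting in the gene body alone left 2 pSMAD1/5/9 peaks at 2 genes, 8 SMAD4 peaks after BMP6 and 22 H3K27ac peaks in the control. A promoter window (1.5 kb before and 0.5 kb after the TSS) left 1 pSMAD1/5/9 peak at 1 gene, 6 SMAD4 peaks after BMP6, 1 SMAD4 peak at 1 gene in the control, and 5 H3K27ac peaks in either condition. The share of all genes was not computed for these alternative thresholds and windows. With an overlap of 50% of both peaks, 0% of the pSMAD1/5/9 peaks overlapped H3K27ac after BMP6, which their widths fixed, since each was less than 50% as wide as the H3K27ac peak over it. As a percent of the list, 0 shared SMAD4 sites had the control above, and 8 and 3 shared H3K27ac sites had BMP6 and the control above, the latter chosen after seeing the data. Of 135 alternative values, 105 stayed within the replicate spread, the counting interval or 1.5 times, and 30 moved further. The count of 105 is no measure of stability. For ranks, the spread was the standard deviation of the same 2 replicate columns, which few ranks could leave, and 3 of 26 did. Ranks counted as within it could still change by over 1.5 times. The counting intervals rest on 4 or 13 peaks and are wide. By 1 replicate column alone, the rank of a strongest peak moved by over 1.5 times from 3768 to 5906 for pSMAD1/5/9 at *Fst*, and for SMAD4 after BMP6 from 4402 to 8981 at *Nog*, from 7958 to 4739 at *Bmper* and from 5782 to 3516 at *Bambi*. With windows of 100 or 400 bp, 6 of 20 sums of motif matches at the strongest sites moved by over 1.5 times, among them SMAD4 sites with 2 to 1 at *Nog*, 2 to 1 at *Fstl1* and 3 to 1 at *Bmper* in 100 bp, and 0 to 2 at *Fst* in 400 bp. No paired analysis was possible because the replicate columns carry no number and no test was made. The libraries of an antibody had been brought to the same depth, but the read depth at each site is unknown. A site below the IDR threshold in one condition is not thereby free of signal.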

Other observations

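Beyond the 20 kb windows, and chosen after their values were seen, the nearest pSMAD1/5/9 peak to the *Nog* TSS after BMP6 had its summit 115 kb downstream and ranked 7096 of 7339. The nearest SMAD4 peak of the control to *Nog* had its summit 95.3 kb downstream and ranked 4323 of 8577, and *Nog* was its nearest gene. For *Bmper*, the peak of pSMAD1/5/9 after BMP6 191 kb upstream ranked 5629 (6623 and 4033 by replicate), and the control SMAD4 peak there ranked 5454 of 8577 (7216 and 3210 by replicate), with *Bmper* as the nearest gene of both. The nearest control pSMAD1/5/9 peak to any of the 7 genes was 312 kb from the *Fstl1* TSS, next to the TSS of *Gsk3b*.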
